A study of Mus musculus with 111 samples.

Results

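The expression of 6 genes of the histone variant H3.3 pathway was followed in the tuberomammillary nucleus (TMN), a nucleus of the posterior hypothalamus and the home of the brain's histamine neurons. The genes were H3f3a and H3f3b, which both encode H3.3, the H3.3 chaperone genes Hira, Daxx and Atrx, and Tgm2, which encodes transglutaminase 2. They were chosen by name, with earlier results of these data known, and they are 6 of the 54087 rows of the count tables. RNA was sequenced from the TMN of adult male and female C57BL/6J mice (C57BL/6 in the labels), 1 mouse per library, at zeitgeber times ZT0, 4, 8, 12, 16 and 20 (ZT0 is lights on). Every mouse carried an adeno-associated virus (AAV) in the TMN. The GFP group received an empty IRES-GFP virus, the H3.3 group a virus for tagged wild-type H3.3 with GFP, and the Q5A group a virus for tagged H3.3 whose glutamine 5 is an alanine. There were 32 GFP, 39 H3.3 and 39 Q5A libraries, with 4 to 8 in each of the 18 combinations of virus and ZT, and GFP and H3.3 together form the 71 controls of the design. All 3 groups kept their own H3.3 genes, no group was free of virus, and the counts do not give the share of cells that carried it. By the study's methods the tissue of virus-carrying brains was cut out of sections where GFP was seen under blue light, so the samples were enriched for infected tissue, although the labels speak of punches.

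H3.3 is the histone H3 that cells can place in chromatin outside DNA replication, which makes it the main new H3 of neurons that no longer divide. HIRA, with its partners UBN1, UBN2 and CABIN1, places H3.3 at active genes. DAXX binds H3.3 and works with the chromatin remodeller ATRX at repeats and telomeres. Transglutaminase 2 joins monoamines such as serotonin, dopamine and histamine to glutamine 5 of H3, and the Q5A mutant lacks the glutamine that the enzyme uses.

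H3f3a lies at chr1:180800832-180813943 and H3f3b at chr11:116021912-116027962, both on the minus strand of the mouse genome build GRCm38. Each has a coding sequence of 411 bases, of which 316 (76.9%) are the same in both, and the 136 translated residues (methionine included) differ at 0 positions. The first 60 coding bases are shown 5′ to 3′ because they hold the codon that the Q5A virus changes, CAG for glutamine 5, in capitals.
H3f3a: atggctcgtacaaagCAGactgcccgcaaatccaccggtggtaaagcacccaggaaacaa
H3f3b: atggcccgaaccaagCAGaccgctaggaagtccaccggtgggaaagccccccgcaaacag
In this stretch 47 of the 60 bases are the same. The next stretch is the coding part of the last exon of H3f3a (chr1:180803077-180803205, minus strand, 129 bases), shown because all of it lies under exon 1 of Gm17275, a long noncoding RNA gene on the opposite strand.
H3f3a last coding exon: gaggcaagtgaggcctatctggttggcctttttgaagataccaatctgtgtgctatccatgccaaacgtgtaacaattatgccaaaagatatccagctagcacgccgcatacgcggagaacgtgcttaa
Between H3f3a and H3f3b, 101 of these 129 bases are the same. A further 38 annotated rows match the H3f3a coding sequence at 90% identity or more on the same strand, most of them processed pseudogenes. By name, only 3 of those rows (H3f3a-ps1, H3f3a-ps2 and H3f3c) are in the count tables, with at most 9 reads each over all libraries. The other copies may be counted under other names, because only 28499 of the 54087 rows matched a name in the annotation. The value of the H3f3a row is therefore uncertain to the extent that reads could be split among these copies. The designed sequence of the viral H3.3 was not used here, so reads of the virus could not be told from reads of the mouse genes.

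Each library held 673306 to 3375352 reads in gene rows, which was 3.49% to 5.64% of its uniquely placed reads. The library kit is reverse-stranded, whereas the reads were counted with the stranded option yes, so a row may hold reads from the strand opposite its gene in place of the transcripts of the gene. Which strand the reads of a row came from was not tested, and each level below is that of a row under this limit. Rows with exons opposite the members are given beside them: Gm17275 (638 exon bases in common with H3f3a) and H3f3aos (160 bases) for H3f3a, and Rprd1b (370 bases) for Tgm2. The annotation used for positions holds no gene with exons opposite H3f3b, Hira, Daxx or Atrx. Counted rows whose names it does not hold could not be placed. Levels are given in CPM, the reads of a row per 1000000 reads in gene rows, with the total of each library scaled by the TMM method of edgeR. The libraries stemmed from 3 cohorts that were not balanced over the viruses. Cohort 1 gave 28 GFP, 24 H3.3 and 26 Q5A libraries, cohort 2 gave 4, 10 and 10, and cohort 3 gave 0, 5 and 3. Hdc, the enzyme that makes histamine, had a median of 4 reads and none in 11 libraries. Slc18a2, the vesicular monoamine transporter, had a median of 90 reads, although its exons too overlap a gene on the other strand. The 6 oligodendrocyte markers summed to a median of 1748 CPM, the 8 neuron markers to 902 and the 5 histaminergic markers to 86.3 CPM. Part of each sum came from rows under the same strand limit. Cnp (mean 602 CPM) lies partly opposite Dnajc7, and Map2 (146 CPM) and Nefl (145 CPM) have exons opposite other genes. Slc18a2 (mean 67.0 CPM) made up most of the histaminergic sum, beside 4.69 CPM for Hdc. The sums therefore do not measure the share of each cell type. Each library is of dissected tissue as a whole, in which fewer cells of a type and less RNA per cell cannot be told apart.

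The rows of all 6 genes held reads, but few, and whether these were transcripts of the genes was not tested. The median per library was 22 reads for H3f3b (3 to 122) and 22 for Atrx (2 to 143). Hira had a median of 10 reads (0 to 27) and Daxx of 6 (1 to 28). H3f3a had a median of 5 reads (0 to 21) and Tgm2 of 5 (0 to 17), and H3f3a was at 0 in 4 libraries, Tgm2 in 3 and Hira in 1. Counting error alone would give a variance equal to the mean. The variance of the reads was 1.58 to 2.05 times that for Hira, H3f3a, Daxx and Tgm2, 5.46 times for H3f3b and 10.1 times for Atrx.

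Per length, the H3f3b row was the highest of the 6 rows, all from the small share of reads that fell in gene rows (3.49% to 5.64%). On the scale of CPM per kilobase of exon its level was 5.67 ± 1.87 (SD, n = 110), and it was above Daxx, the next in order, in 110 of 110 libraries. Daxx followed at 1.56 ± 0.715, Hira at 1.23 ± 0.491 and H3f3a at 1.06 ± 0.603 CPM per kilobase. Tgm2, at 0.756 ± 0.4657, and Atrx, at 0.754 ± 0.355 CPM per kilobase, were the lowest. Below H3f3b each mean differed from its neighbour in the order by less than the larger SD of the pair, and the upper gene of a pair was the higher one in 75, 68, 74 and 47 of 110 libraries. The order thus separated H3f3b from the other 5, and below it no neighbouring pair was separated beyond its spread. Genes further apart in the order, such as Daxx and Atrx, were not compared in this way. The same held for the place of H3f3b in each virus group, where it had 5.61 ± 1.75 (GFP, n = 32), 5.67 ± 1.93 (H3.3, n = 39) and 5.73 ± 1.96 CPM per kilobase (Q5A, n = 39), against 0.942 ± 0.544, 1.00 ± 0.619 and 1.23 ± 0.612 for H3f3a.

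The first comparison asks whether the virus changed the rows of these genes over all ZT. No change between the viruses was called in the rows of H3f3a and H3f3b. Whether reads of the viral H3.3 could enter these rows was not tested, because of the strand limit and because the viral sequence was not used. The rows therefore cannot show how much viral H3.3 was expressed. In GFP libraries H3f3b ran from 6.25 to 32.7 CPM (median 16.02), in H3.3 libraries from 7.93 to 30.6 (median 15.98), and Q5A libraries spanned 4.15 to 30.6 (median 17.3). The 3 ranges overlapped almost wholly, and the means were 16.7 ± 5.19, 16.9 ± 5.75 and 17.0 ± 5.83 CPM. The log2 difference of H3.3 minus GFP was 0.04 ± 0.12 (SE), with a 95% interval of -0.19 to 0.28, and that of Q5A minus controls was 0.02 ± 0.10 (-0.17 to 0.21). GFP libraries held 0 to 7.11 CPM of H3f3a (median 3.05), H3.3 libraries 0 to 9.46 (median 3.103) and Q5A libraries 0.531 to 11.4 (median 3.997). Its mean was highest in Q5A (3.299 ± 1.91, 3.51 ± 2.17 and 4.30 ± 2.14 CPM), yet the ranges again overlapped. The log2 difference of H3f3a was 0.10 ± 0.21 (-0.33 to 0.52) for H3.3 minus GFP and 0.30 ± 0.17 (-0.04 to 0.64) for Q5A minus controls. The adjusted p of the latter was 0.832 in edgeR's quasi-likelihood test (unadjusted p = 0.0816).

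**Figure D1:**
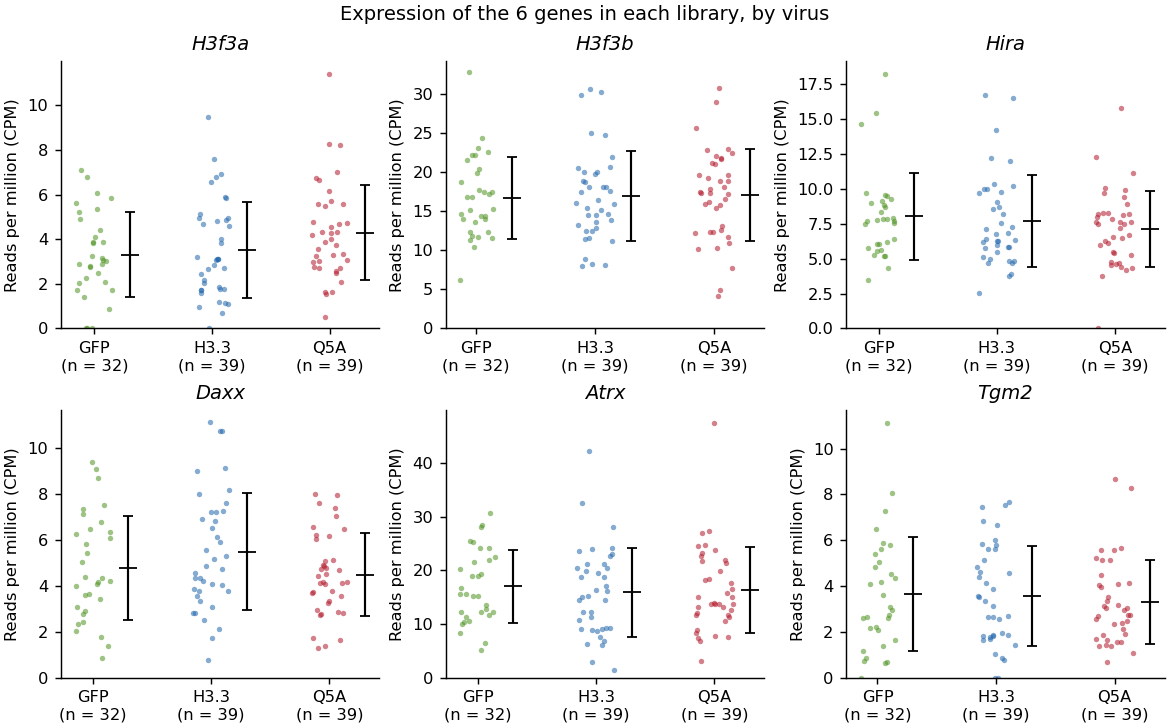
Level (CPM, TMM-scaled) of each of the 6 genes in every library, by virus (GFP n = 32, H3.3 n = 39, Q5A n = 39); each point is 1 library, and the black bar with whiskers beside the points is the mean ± SD. The 3 viruses overlap over nearly the whole range for every gene, and H3f3a has the highest mean in Q5A (4.30 CPM against 3.299 and 3.51).

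No difference of a chaperone gene between the viruses passed the test. Hira (chr16:18877037-18970309, plus strand) had 8.04 ± 3.14 CPM in GFP, 7.74 ± 3.298 in H3.3 and 7.16 ± 2.72 in Q5A. Its log2 difference was -0.05 ± 0.13 for H3.3 minus GFP and -0.14 ± 0.11 for Q5A minus controls. Daxx (chr17:33909414-33915590, plus strand) had 4.77 ± 2.28, 5.48 ± 2.56 and 4.48 ± 1.80 CPM, so that its mean was highest in H3.3. The log2 differences of Daxx were 0.21 ± 0.16 for H3.3 minus GFP and -0.20 ± 0.14 for Q5A minus controls. Against H3.3 alone, Q5A was lower by a log2 difference of -0.29 ± 0.16 (-0.60 to 0.02), with an adjusted p of 0.943 and an unadjusted p of 0.0664. Atrx (chrX:105797615-105929403, minus strand) had 17.0 ± 6.77, 15.9 ± 8.35 and 16.3 ± 7.97 CPM, with log2 differences of -0.08 ± 0.17 and 0.01 ± 0.14.

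Tgm2 (chr2:158116402-158146436, minus strand) had 3.63 ± 2.49 CPM in GFP, 3.56 ± 2.17 in H3.3 and 3.29 ± 1.83 in Q5A. Its highest library had 11.1 CPM in GFP, 7.66 in H3.3 and 8.65 in Q5A, and its lowest had 0, 0 and 0.682. Its log2 difference of H3.3 minus GFP was 0.03 ± 0.22 (-0.40 to 0.46). Tgm2 was left out of the fit of Q5A against controls by the filter on low counts, and without the filter the log2 difference was -0.11 ± 0.19 (-0.48 to 0.25).

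Called members thus numbered 0 of 6 tested for H3.3 against GFP and 0 of 5 for Q5A against controls (adjusted p under 0.01), and 0 in each had an unadjusted p under 0.05. Over all rows tested the same test called 0% for both comparisons, with 453 of 12300 and 660 of 12159 rows at an unadjusted p under 0.05. Q5A against GFP called 0.0163% and Q5A against H3.3 called 0%, and no member was among the called rows. DESeq2 also called 0 members. The median log2 difference of the members, 0.04 and 0.01, lay beside 0.01 and 0.00 for all rows tested.

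**Figure D2:**
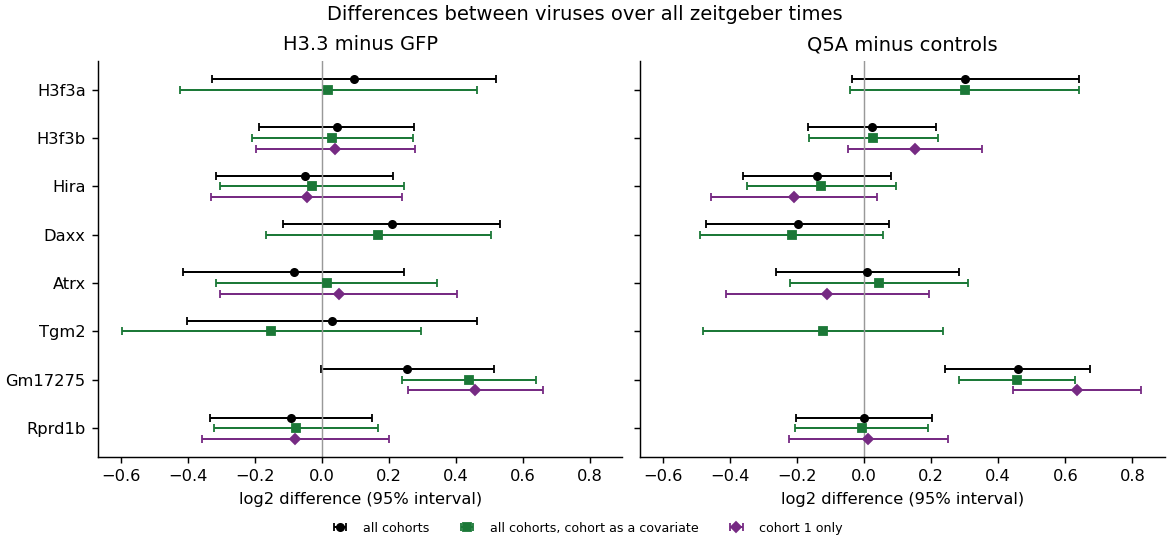
Log2 difference with its 95% interval for the 6 genes and the opposite-strand rows Gm17275 and Rprd1b, for H3.3 minus GFP (left) and Q5A minus controls (right); circles are all cohorts, squares all cohorts with cohort as a covariate and diamonds cohort 1 only, and a missing symbol means that the row did not pass the filter on low counts in that fit. Every interval of the 6 genes includes 0, whereas that of Gm17275 in Q5A minus controls lies above 0 in each of the 3 fits.

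At single ZT the member with the smallest p was Atrx, which differed in opposite directions at 2 times of day. At ZT12 the GFP libraries ran from 15.6 to 30.8 CPM (median 23.7, n = 6) and the H3.3 libraries from 7.61 to 18.8 CPM (median 10.7, n = 7), and 6 of the 7 H3.3 libraries lay below the lowest GFP library. The log2 difference of H3.3 minus GFP was -1.06 ± 0.26, with an edgeR adjusted p of 0.0700 (0.0311 with DESeq2). At ZT20 the order was turned. The GFP libraries had 8.33, 10.5, 11.3, 13.5 and 19.0 CPM, the H3.3 libraries ran from 14.5 to 42.3 CPM (median 22.1, n = 6), and 5 of these 6 lay above the highest GFP library. The log2 difference at ZT20 was 1.09 ± 0.33, with an edgeR adjusted p of 0.333 over all cohorts and 0.0748 in cohort 1 alone (1.31 ± 0.32). Neither difference passed the threshold of 0.01, and many rows moved at those times: 2877 of 9774 rows at ZT12 and 1247 of 9323 at ZT20 had an unadjusted p under 0.05, and 0% were called. In cohort 1 alone the means of Atrx at ZT12 were 24.5 CPM in GFP (n = 5) and 10.32 CPM in H3.3 (n = 4), and at ZT20 they were 12.5 (n = 5) and 29.8 CPM (n = 4).

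Over the 12 fits at single ZT, 0 of 16 member tests were called for H3.3 against GFP and 0 of 17 for Q5A against controls, beside 0% of the 9008 to 10596 rows tested. At an unadjusted p under 0.05 there were 2 of these tests for H3.3 against GFP, both of Atrx, and 1 for Q5A against controls, Atrx at ZT8 (log2 difference 0.70 ± 0.33, adjusted p = 0.253). DESeq2, run without the filter, called 0 of 36 in each, with 2 and 3 at an unadjusted p under 0.05. H3f3a and Tgm2 passed the filter at no single ZT, so these edgeR tests were of H3f3b, Atrx, Hira and, once, Daxx.

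The next question was whether the genes varied over the day, and whether Q5A changed that. In controls no member had a ZT effect in the count model, in which 6.08% of all rows were called at an adjusted p under 0.05. The means of H3f3b were 13.4 ± 3.75 CPM at ZT0 (n = 9) and 18.4 ± 6.60 at ZT20 (n = 11), with an edgeR adjusted p of 0.433. Hira was highest at ZT0 and ZT4 (9.38 ± 3.55 and 9.05 ± 2.88 CPM) and lowest at ZT16 (6.54 ± 3.198), with an adjusted p of 0.458. In the rank test JTK_CYCLE, Hira in controls had an adjusted p of 0.108 over all templates and of 0.0323 when only the 24 h period was allowed, with its peak at ZT4. H3f3a, H3f3b, Daxx, Atrx and Tgm2 had a JTK_CYCLE adjusted p of 1 in controls.

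**Figure D3:**
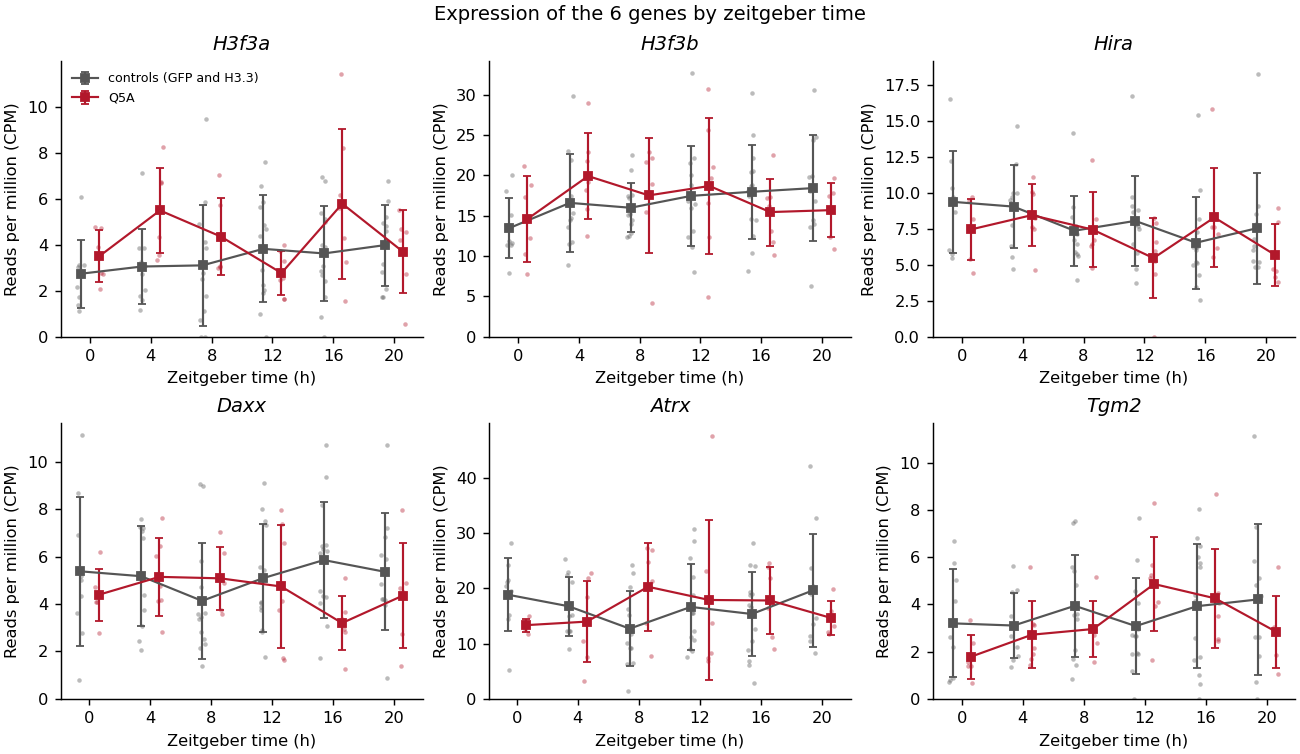
Level (CPM, TMM-scaled) of the 6 genes against zeitgeber time in hours, for controls (grey, GFP and H3.3 pooled, n = 9 to 14 per ZT) and Q5A (red, n = 6 or 7 per ZT); points are libraries and squares with whiskers the mean ± SD. The Q5A mean of Tgm2 is 1.78 CPM at ZT0 and 4.86 CPM at ZT12, while its control means stay between 3.08 and 4.21 CPM.

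By JTK_CYCLE (adjusted p under 0.05, an adjustment over the templates of a row and not over rows) 2 members were called in 1 group each. Tgm2 was called in Q5A with a 24 h period and a peak at ZT12 (adjusted p = 0.00458, q over all rows = 0.657). Its Q5A libraries ran from 0.682 to 3.33 CPM at ZT0 (median 1.47, n = 6), from 1.44 to 5.57 at ZT4 (median 2.13, n = 7) and from 1.54 to 5.14 at ZT8 (median 2.81, n = 6). They ran from 1.65 to 8.28 CPM at ZT12 (median 5.12, n = 7), from 2.45 to 8.65 at ZT16 (median 4.05, n = 7) and from 1.06 to 5.58 at ZT20 (median 2.74, n = 6). The medians were thus highest at the start of the dark phase and lowest at lights on, but each pair of neighbouring times overlapped, and these values stand for 1 to 17 reads per library. The call was not kept in cohort 1 alone (adjusted p = 0.0568) or without replicate 3 of cohort 1 (0.0509). A difference in rhythm between Q5A and controls was not called for Tgm2 (fit without the filter, unadjusted p = 0.177, edgeR adjusted p = 0.586).

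Atrx was called in H3.3 with a period of 20 h and a peak at ZT0 (adjusted p = 0.00959, q = 0.458). Its H3.3 means were 19.9 ± 3.53 CPM at ZT0 (n = 5), 11.03 ± 6.94 at ZT8 (n = 7) and 11.2 ± 3.71 at ZT12 (n = 7), and the mean was 25.6 ± 10.1 at ZT20 (n = 6). In GFP, Atrx was highest at ZT12 (22.997 ± 6.45, n = 6) and lowest at ZT20 (12.5 ± 4.05, n = 5), and it was not called (adjusted p = 0.492). The H3.3 call was lost without replicate 1 (0.0976) or replicate 2 (0.0549) of cohort 1. Atrx also had the smallest p of the members in the test of a rhythm difference between Q5A and controls (unadjusted p = 0.0215), but its adjusted p was 0.277.

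Of all rows JTK_CYCLE called 13.9% in controls (0 of 6 members), 11.3% in GFP (0 of 6), 6.54% in H3.3 (1 of 6) and 4.15% in Q5A (1 of 6). The test of a rhythm difference called 0.0905% of rows and 0 of the 5 members tested, and DESeq2 called 0 members too. The H3f3a row in Q5A had its highest means at ZT4 and ZT16 (5.49 ± 1.84 and 5.78 ± 3.27 CPM, n = 7 each) and its lowest at ZT12 (2.77 ± 0.945, n = 7), with a JTK_CYCLE adjusted p of 0.103.

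The row opposite H3f3a, that of the noncoding RNA gene Gm17275 (chr1:180802568-180809483, plus strand), held many more reads than H3f3a itself, and its level differed between the viruses in cohort 1. It had a median of 169 reads per library (62 to 371) against 5 for H3f3a. In cohort 1, Gm17275 ran from 80.5 to 239 CPM in GFP (median 110, n = 28), from 85.2 to 305 in H3.3 (median 131, n = 24) and from 134 to 290 in Q5A (median 200, n = 26). The Q5A libraries stood apart from most GFP libraries, 26 of 28 of which lay below the lowest Q5A library, as did 13 of the 24 H3.3 libraries. In cohorts 2 and 3 the groups overlapped, at 87.4 ± 28.3 CPM in GFP (n = 4), 91.6 ± 23.16 in H3.3 (n = 15) and 93.1 ± 29.1 in Q5A (n = 13).

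Within cohort 1 the log2 difference of Q5A minus GFP for Gm17275 was 0.86 ± 0.10, with an edgeR adjusted p of 6.08e-10. In that fit 0.72% of rows were called. Q5A minus controls was 0.64 ± 0.10 (adjusted p = 1.05e-05, 0.249% of rows called) and was called as well. H3.3 minus GFP was 0.46 ± 0.10 (adjusted p = 0.0162, with 0.107% of rows called) and Q5A minus H3.3 was 0.40 ± 0.10 (adjusted p = 0.442, 0% called), and these missed the threshold. In cohorts 2 and 3 the same 4 differences lay between 0.00 and 0.08 with adjusted p of 0.994 to 1.00 and 0% of rows called, and the interval of Q5A minus controls was -0.33 to 0.36. The interaction of virus and cohort, which tests whether the difference of Q5A and controls was larger in cohort 1, was 0.61 ± 0.19 for Gm17275 (unadjusted p = 0.00138, adjusted p = 1.00, 0% of rows called). For H3f3b this interaction was 0.42 ± 0.21 (unadjusted p = 0.0421) and for H3f3a 0.69 ± 0.36 (unadjusted p = 0.0640), each with an adjusted p of 1.00.

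Over all cohorts Gm17275 was not called for Q5A minus controls (0.46 ± 0.11, edgeR adjusted p = 0.163) or Q5A minus GFP (0.60 ± 0.13, adjusted p = 0.0466). With cohort as a covariate it was called in both, at 0.45 ± 0.09 (adjusted p = 0.00159, 0.0905% of rows called) and 0.71 ± 0.10 (adjusted p = 2.76e-07, 0.377% called). H3.3 minus GFP was 0.44 ± 0.10 in that fit (adjusted p = 0.0287, 0.083% called) and Q5A minus H3.3 was 0.27 ± 0.09 (adjusted p = 0.847, 0.00754% called). Within a virus, cohort 1 minus the later cohorts was 1.18 ± 0.13 in Q5A (adjusted p = 1.62e-08, 1.51% of rows called) and 0.77 ± 0.15 in H3.3 (adjusted p = 0.00151, 0.678% called). In GFP, with 4 later libraries, the difference was 0.44 ± 0.21 (adjusted p = 0.545, 0% called).

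**Figure D4:**
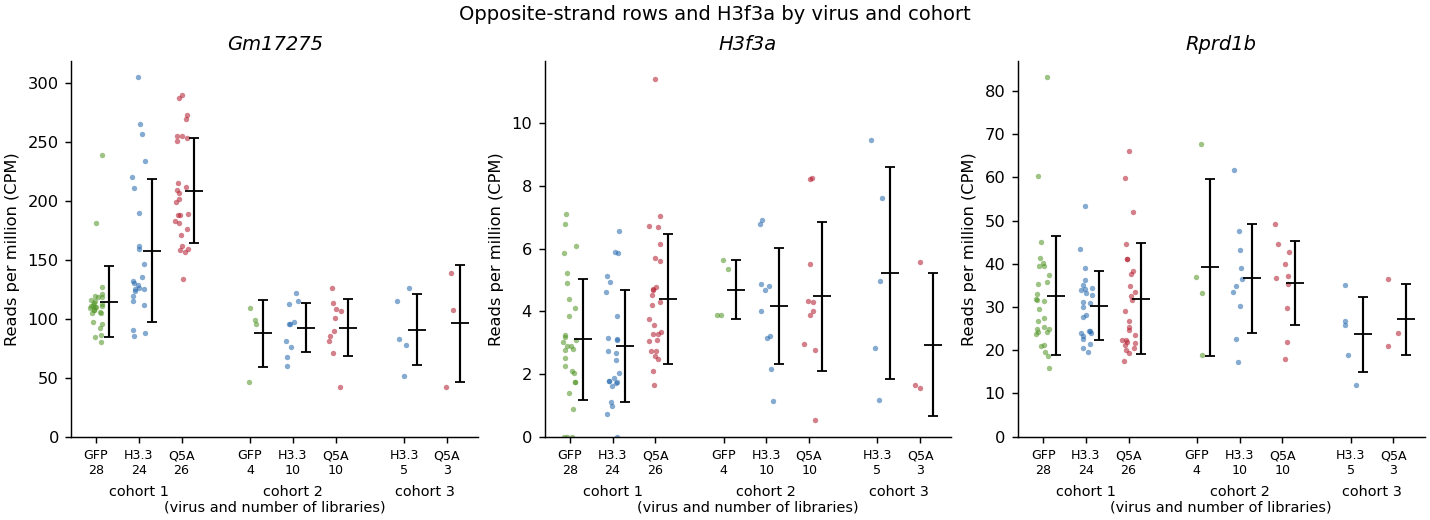
Level (CPM, TMM-scaled) of the opposite-strand row Gm17275, of H3f3a and of the opposite-strand row Rprd1b, by cohort and virus, with the number of libraries under each group; points are libraries and the bar with whiskers beside them the mean ± SD. In cohort 1 the Q5A libraries of Gm17275 start at 134 CPM, above 26 of 28 GFP libraries, while in cohorts 2 and 3 the viruses overlap, and H3f3a and Rprd1b overlap in every cohort.

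This pattern was not particular to Gm17275. In the cohort 1 fit of Q5A against GFP 81 rows were called, and Srpk2 (an SR protein kinase gene), Ubxn8 and the row named RP23-273G23.2 had smaller p than Gm17275. These 3 were picked after their values were seen. Over the 110 libraries the Spearman correlation of Gm17275 was 0.83 with Srpk2, 0.89 with Ubxn8 and 0.88 with RP23-273G23.2, rows that share its libraries and their depth. Because the 3 rows were picked for a difference between viruses in these same libraries, the correlations are no separate evidence of likeness. Srpk2 had 114 ± 21.5 CPM in GFP, 154 ± 41.1 in H3.3 and 191 ± 26.5 in Q5A in cohort 1, and 85.1 ± 8.95, 92.4 ± 16.04 and 101 ± 14.8 CPM in cohort 2. The correlation of Gm17275 with the H3f3a row was -0.06. With a median of 5 reads for H3f3a, much of its spread is counting error, so this value cannot tell whether the rows of the 2 strands were alike. What sets the level of these rows was not tested. In cohort 1 the gene rows took 3.97% ± 0.188 of the uniquely placed reads in GFP, 3.94% ± 0.289 in H3.3 and 3.92% ± 0.182 in Q5A, and the neuron markers summed to 915 ± 209, 923 ± 333 and 963 ± 181 CPM.

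No difference of the other opposite-strand rows over all ZT passed the test. Rprd1b, which lies opposite Tgm2 and encodes a regulator of RNA polymerase II, had 33.4 ± 14.6 CPM in GFP, 31.1 ± 9.98 in H3.3 and 32.4 ± 11.8 in Q5A. Its log2 differences were -0.09 ± 0.12 for H3.3 minus GFP and 0.00 ± 0.10 for Q5A minus controls, with an edgeR adjusted p of 1.00 for both. JTK_CYCLE called it with a 12 h period in GFP (adjusted p = 0.0430) and in H3.3 (0.0488), not in Q5A (0.322) or in the pooled controls (1). A rhythm difference of Rprd1b between Q5A and controls was called in cohort 1 alone (edgeR adjusted p = 0.0196) but not over all cohorts (0.350). Calls were common in that cohort 1 fit: at least 616 rows were called, Snap25 at rank 616 by p among them (edgeR adjusted p = 0.0347). Over all cohorts 0.0905% of rows were called. H3f3aos had a median of 3 reads and 2.90 ± 1.96, 2.695 ± 2.06 and 2.40 ± 1.77 CPM, and it was tested only without the filter (Q5A minus controls -0.18 ± 0.22, adjusted p = 0.796).

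Genes that work with these 6 were examined as lists of named genes. Of 19 genes for H3.3 deposition partners and readers, 16 were tested and 0 were called for either comparison of viruses. Their median log2 difference was 0.02 for H3.3 minus GFP and 0.01 for Q5A minus controls, beside 0.01 and 0.00 for all rows. Setdb1, a histone H3 lysine 9 methyltransferase, and Ubn2, a HIRA partner, had the smallest p of the list in both. Setdb1 differed by 0.25 ± 0.13 for H3.3 minus GFP and by -0.15 ± 0.11 for Q5A minus controls, and Ubn2 by 0.19 ± 0.13 and -0.14 ± 0.11, with edgeR adjusted p of 0.832 or more. Setdb1 has exons that overlap a gene on the other strand.

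Of the 8 other transglutaminase genes, Tgm4 alone passed the filter, and its exons overlap a gene on the other strand. Its log2 difference was 0.09 ± 0.11 for H3.3 minus GFP and -0.16 ± 0.09 for Q5A minus controls (edgeR adjusted p = 0.832). Of 10 other histone variant genes 6 were tested and 0 called. H2afy, the gene of the macroH2A1 variant, had the smallest p for Q5A minus controls (0.15 ± 0.06, adjusted p = 0.832, unadjusted p = 0.0154), followed by H1f0, a linker histone gene (0.10 ± 0.07), and exons of both overlap a gene on the other strand. For H3.3 minus GFP the 2 were Hist3h2ba, an H2B gene (0.21 ± 0.15), and H2afy (0.09 ± 0.08). Of the 5 genes for chaperones that act during replication 2 were tested, Chaf1a of the CAF-1 complex (0.07 ± 0.09 and -0.04 ± 0.08) and Tonsl (-0.11 ± 0.10 and 0.11 ± 0.08), and 0 were called.

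Over the day in controls, 2 of the 16 deposition partners and 1 of the 6 histone variant genes had a ZT effect, beside 6.08% of all rows. Spop, which encodes an adaptor of a ubiquitin ligase that acts on nuclear proteins, was lowest at ZT8 (32.8 ± 6.70 CPM, n = 13) and highest at ZT16 (45.6 ± 9.89, n = 14), with an edgeR adjusted p of 0.0175. Nasp, a chaperone of H3 and H4 that keeps a pool of free histones, ran the other way, from 30.4 ± 7.64 CPM at ZT4 (n = 11) to 19.7 ± 4.43 at ZT16 (n = 14), with an adjusted p of 0.0452. H2afv, one of the genes of the H2A.Z variant, was lowest at ZT8 (3.09 ± 1.95 CPM) and highest at ZT16 (7.56 ± 2.58), with an adjusted p of 0.0486. Libraries of all 3 genes overlapped between those times: Spop ran from 25.2 to 47.3 CPM at ZT8 and from 29.7 to 61.6 at ZT16, and Nasp from 15.2 to 38.0 at ZT4 and from 12.5 to 26.1 at ZT16. The same 3 genes were called rhythmic in controls by JTK_CYCLE, Spop with a peak at ZT16 (adjusted p = 0.000259), Nasp at ZT6 (0.000321) and H2afv at ZT16 (0.00150), each with a period of 20 h, together with Supt16 and H2afy2. Without the filter on low counts the ZT effect was not called for Nasp (edgeR adjusted p = 0.0726), Spop (0.106) or H2afv (0.0896). In cohort 1 alone it was not called for H2afv (0.0721), and with cohort and replicate number as a block not for Nasp (0.0617).

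**Figure D5:**
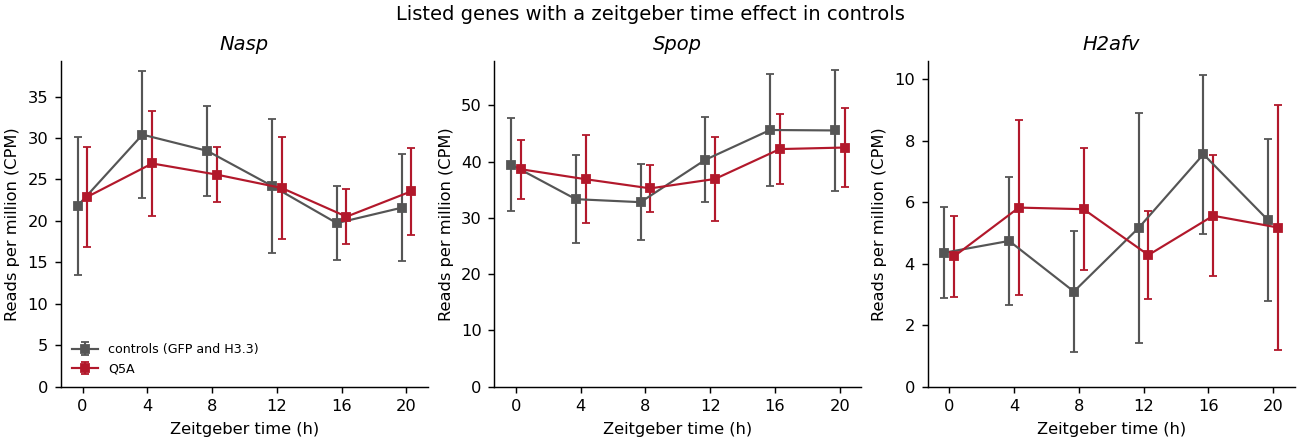
Mean level (CPM, TMM-scaled) with SD as whiskers for Nasp, Spop and H2afv against zeitgeber time in hours, in controls (grey, n = 9 to 14 per ZT) and Q5A (red, n = 6 or 7 per ZT). In controls Nasp is highest at ZT4 (30.4 CPM) and Spop and H2afv at ZT16 (45.6 and 7.56 CPM), and the Q5A means span a smaller range for each.

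In Q5A, JTK_CYCLE called none of these 3 genes (adjusted p of 0.468 for Nasp, 0.822 for Spop and 1 for H2afv). Spop ran between means of 35.3 and 42.5 CPM in Q5A, Nasp between 20.5 and 26.9 and H2afv between 4.24 and 5.82. The difference in rhythm itself was not called for any of them, with edgeR adjusted p of 0.611, 0.537 and 0.336 for Nasp, Spop and H2afv. Of the deposition partners JTK_CYCLE called 3 of 18 in controls (13.9% of all rows), 0 of 18 in Q5A (4.15%), 4 of 18 in GFP (Chd1, Chd2, Nasp and Spop, beside 11.3%) and 1 of 18 in H3.3 (6.54%). The 0 of 18 in Q5A is near the share of all rows. The single call among the replication chaperones was Mcm2 in Q5A.

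Marker genes of the cell types in the dissected tissue were read beside the members. For Q5A minus controls 7 of 7 astrocyte markers had a positive log2 difference (median 0.13, beside 0.00 for all rows tested). The smallest p were those of Aqp4, the water channel (0.47 ± 0.18, edgeR unadjusted p = 0.00805), and Gfap (0.45 ± 0.21, unadjusted p = 0.0321), and 0 of 7 were called. The 7 markers were read in the same libraries, so their signs are not independent. Their sum ran from 312 to 1013 CPM in Q5A, from 239 to 859 in GFP and from 206 to 920 in H3.3, and its part in the H3f3a values was not tested. The medians for the other lists were 0.08 (neuron), 0.15 (histaminergic), 0.00 (oligodendrocyte), -0.09 (microglia) and 0.02 (endothelial and mural). Markers with a called ZT effect in controls included Snap25, Syt1, Hdc, Slc18a2 and Slc1a2. Hdc was the single listed gene with a called rhythm difference (edgeR adjusted p = 0.0361).

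Across all 110 libraries the rows most like H3f3b, by Spearman correlation of CPM without TMM scaling among 9079 rows with a median of 10 reads or more, were Mlc1 (0.75), Eef1a1 (0.75) and Hnrnpr (0.75). For Atrx they were Unc80 (0.81), Wdfy3 (0.80) and Smg1 (0.79), and for Hira, with lower values, they included Galnt10 (0.40) and Pygo2 (0.36). These rows share libraries and depth with the member. Among the members themselves the highest correlation was 0.49 between H3f3b and Atrx, followed by 0.40 between H3f3b and Daxx and 0.36 between H3f3a and H3f3b, and the lowest was -0.15 between Hira and Tgm2.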

How the data were processed

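RNA-seq of virus-infected TMN tissue, dissected by its GFP signal, gave 111 libraries. The authors aligned reads to GRCm38 with STAR 2.7.11b and deposited raw counts per gene name, made with HTSeq 2.0.5 (exons, union mode, stranded option yes). Of 54087 rows, 28499 matched the GENCODE annotation used for positions. Replicates 2 and 3 of cohort 2 in Q5A at ZT4 held the same count in all 12541 rows with 10 or more reads in the pair, a library deposited again, and entered as their mean, 1 sample, which left 110. A further 18 files that no sample label covers were not used here. Replicates were single mice.

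Comparisons used edgeR 4.0.16 in R 4.3.3 (TMM, filterByExpr with a minimum count of 10, quasi-likelihood F test, Benjamini-Hochberg over all rows tested). Level comparisons were called at an adjusted p under 0.01, rhythm tests under 0.05. Log2 differences are unshrunk coefficients. ZT was a factor in the fits over all ZT, with virus as 3 levels or as Q5A against controls, and fits at single ZT used that ZT alone. Rhythm differences were 24 h cosinor interactions. JTK_CYCLE was reimplemented in Python 3.11.15 (numpy 2.4.6, 20 templates, periods of 8 to 24 h) on counts scaled by DESeq2's size factors for 18066 rows. DESeq2 1.42.0 was an alternative. In simulated data for Q5A against controls on 12159 rows, 188 of 200 rows with a log2 change of 1 and 125 of 200 with 0.5 were recovered, with 2 and 1 false calls. The changed rows were drawn at random from all rows that passed the filter, without cohort or ZT differences. Recovery at the low counts of the members was not assessed.

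The members and lists were chosen with earlier results of these data known. Named genes were the members, rows opposite them, rows whose name starts with H3f3, list genes that pass or have the 2 smallest p, and, for members with a median of 10 reads or more, the 3 most correlated rows. Some genes that this rule names are not reported here. Sequences come from the GENCODE transcripts of GRCm38.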

Additional observations from a re-analysis of the deposited data

Results flagged for a closer look

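Among 162 groups of 4 to 10 libraries (a member or opposite-strand row in 1 virus at 1 ZT), 17 held a library whose gap to its nearest neighbour was large against the range of the group. Chance gives about 1 in 20 of such groups, or 8.1 here. The share of the range taken by the gap is given for each.

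For the 6 genes the library was the highest of its group in every case. For H3f3b in GFP at ZT0 the gap was 0.866 of the range (15.1 against 11.8 CPM). For Hira it was 0.768 in GFP at ZT16, 0.647 in H3.3 at ZT8 and 0.744 in Q5A at ZT16. For Daxx in H3.3 at ZT8 it was 0.622. For Atrx at ZT12 it was 0.589 in H3.3 (18.8 against 12.2 CPM) and 0.599 in Q5A (47.6 against 23.21 CPM), both in replicate 1 of cohort 2. For Tgm2 in Q5A it was 0.675 at ZT16 (8.65 against 4.47 CPM) and 0.579 at ZT4 (5.57 against 3.18 CPM).

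For Gm17275 in GFP a low library gave 0.973 at ZT0 and 0.716 at ZT8, and a high library gave 0.643 at ZT12 (239 CPM, one of the 4 libraries that stand apart by their reads of RP23-355L10.3 or Platr9) and 0.717 at ZT20. In H3.3 at ZT12 a high library gave 0.623, and it too is one of those 4. For H3f3aos in H3.3 the gap was 0.629 at ZT20 and 0.679 at ZT8, and for Rprd1b in GFP at ZT4 it was 0.790 (83.3 against 37.4 CPM).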

How the results depend on the processing

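Of 359 repeats of 31 results under other settings, 289 kept direction and side of the threshold, 18 crossed to the called side, 21 lost a call and 31 changed sign. In no level comparison was a member called under any setting. Members called rhythmic by JTK_CYCLE numbered 2, 1 in cohort 1 alone, 3 with the 24 h period only (Hira in controls added, adjusted p = 0.0323) and 1 to 2 when a replicate was left out. Without replicate 1 or 2 the call of Atrx was lost. Without replicate 3 that of Tgm2 was lost and Hira in GFP was called (0.0403). Opposite-strand rows called for a level difference numbered 0, and 1 (Gm17275) with cohort as a covariate, in cohort 1 alone and with a block of cohort and replicate number. Called rhythm differences of these rows numbered 0, and 1 (Rprd1b) in cohort 1 alone, where at least 616 of all rows were called. The cause was not tested.

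Signs changed only for differences that were not called. In cohorts 2 and 3 alone, an alternative chosen after the data were seen, H3.3 minus GFP was -0.14 for H3f3b, 0.20 for Hira, -0.033 for Daxx, 0.13 for Atrx, -0.27 for Tgm2 and 0.0043 for Rprd1b, and Q5A minus controls was -0.10 for H3f3a, -0.30 for H3f3b, 0.053 for Hira and -0.0076 for Rprd1b. With cohort as a covariate H3.3 minus GFP was 0.014 for Atrx and -0.15 for Tgm2, and Q5A minus controls was -0.0079 for Rprd1b. In cohort 1 alone Atrx was 0.049 and -0.11. With both copies of the repeated library Q5A minus controls was -0.017 for Atrx and -0.0028 for Rprd1b, and with DESeq2 -0.0025 for Rprd1b. Leaving out a replicate gave Q5A minus controls of -0.026 to 0.035 for H3f3b, -0.086 to 0.12 for Atrx and -0.065 to 0.056 for Rprd1b, and H3.3 minus GFP of -0.083 to 0.036 for Hira and -0.067 to 0.21 for Tgm2.

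The medians gave little sign that replicate numbers pair the mice: deviations from group means correlated with a median of 0.05 in 91 same-numbered pairs and 0.03 in 281 others. The highest correlations were 0.74 and 0.56, and 35 of the 91 and 88 of the 281 pairs were above 0.1. Whether some mice were handled together was not tested. In the replicate block each combination of cohort and replicate number is a level. It gave H3.3 minus GFP of -0.020 for H3f3a, 0.044 for Atrx and -0.17 for Tgm2, and -0.0018 for Rprd1b in Q5A minus controls. With this block the rows called for Q5A against controls rose from 0 to 12, and with cohort alone as a covariate they also numbered 12. Depth limits H3f3a, Daxx and Tgm2 most: none of the 3 passed the filter in cohort 1 alone. Over 16 alternatives Gm17275 lay between 0.02 and 0.67 for Q5A minus controls, with adjusted p of 3.75e-07 to 1.00. In cohort 1 without 1 replicate at a time its adjusted p stayed at 0.000153 to 0.000697.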
